A study of Mus musculus with 6 samples.

Results

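The 10 genes described here are grouped as mitophagy receptors and autophagy adaptors, the proteins that tie a cargo to the growing autophagosome membrane. The group also holds a kinase that marks the cargo (Pink1) and proteins of that membrane which receptors bind (Map1lc3b and Gabarapl2). All 10 genes were chosen by symbol (Bnip3, Bnip3l, Fundc1, Pink1, Sqstm1, Optn, Calcoco1, Tax1bp1, Map1lc3b and Gabarapl2), and all were found among the 23942 genes of the deposited table. RNA was sequenced in bulk from group 1 innate lymphoid cells (ILC1s) of mouse liver, lymphocytes that stay in the tissue and are close kin of natural killer (NK) cells. The naive group held 3 libraries (solvent, day 0) and the memory group 3 libraries (treatment labelled OXA, day 30). The labels give no strain, age, sort gate or pooling of animals, and they do not spell out OXA. Treatment and day changed together, so their effects cannot be told apart.

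In macroautophagy a double membrane closes around cargo and delivers it to the lysosome. Small proteins of the ATG8 family, which include LC3B (Map1lc3b) and GATE-16 (Gabarapl2), are attached to that membrane and bound by receptors through a short LC3-interacting motif. Mitochondria are removed by receptors in their outer membrane (BNIP3, NIX and FUNDC1), or after the kinase PINK1 marks damaged mitochondria with phosphorylated ubiquitin. Adaptors such as p62 (Sqstm1), optineurin (Optn) and TAX1BP1 bind ubiquitin chains on cargo. Mitophagy through Bnip3 and Bnip3l is known for its role in the survival of memory NK cells in mouse cytomegalovirus infection. RNA levels do not measure autophagic flux, which is set largely after translation.

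None of the 10 genes passed the test between memory and naive ILC1s, where 4.17% of the 13793 genes tested did (limma on log2(RPKM + 1), Benjamini-Hochberg adjusted p under 0.05). Here RPKM is reads per kilobase of exon, scaled by the library's total of assigned reads, and each change is memory minus naive. Adjusted p ranged from 0.14 (Optn) to 0.989 (Tax1bp1), and 1 of the 10 had an unadjusted p under 0.05 (Optn). The same unadjusted threshold was passed by 17.5% of genes tested. In 9 of the 10 the change was below 0.1 in absolute log2 value. The median absolute change of the 10 was 0.05, against 0.10 over all genes tested, and the median signed change was -0.02, against 0.02. The precision of this result differed by gene. Taken back to RPKM from the naive level, the 95% interval stayed within a 1.1-fold change in either direction for Tax1bp1, Sqstm1 and Bnip3l, and within 1.25-fold for 8 of the 10. It reached 1.26-fold for Pink1 and 1.41-fold for Bnip3.

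Promoter sequence is shown for 3 members. Bnip3 is the receptor gene best known as a target of the hypoxia factor HIF-1. Gabarapl2 also carries ACGTG, a form of the hypoxia response core, and Optn had the largest change of the 10. The sequences are the 250 bases before the RefSeq start (GRCm38.p6, the build also called mm10), read 5′ to 3′ on the gene's strand, with each match to ACGTG or its complement strand form CACGT in capitals. The windows are chr7:138909507-138909756 (minus strand) for Bnip3, chr8:111940453-111940702 (plus strand) for Gabarapl2 and chr2:5064118-5064367 (minus strand) for Optn.
Bnip3: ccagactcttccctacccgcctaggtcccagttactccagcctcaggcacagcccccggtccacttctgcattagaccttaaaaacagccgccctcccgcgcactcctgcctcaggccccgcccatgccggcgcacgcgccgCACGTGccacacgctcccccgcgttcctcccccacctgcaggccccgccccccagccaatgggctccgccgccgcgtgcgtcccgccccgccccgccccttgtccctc
Gabarapl2: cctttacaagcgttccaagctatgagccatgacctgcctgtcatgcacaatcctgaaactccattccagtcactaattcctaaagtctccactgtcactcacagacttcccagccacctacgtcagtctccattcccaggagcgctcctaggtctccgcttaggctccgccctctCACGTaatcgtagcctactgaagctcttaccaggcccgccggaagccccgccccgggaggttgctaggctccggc
Optn: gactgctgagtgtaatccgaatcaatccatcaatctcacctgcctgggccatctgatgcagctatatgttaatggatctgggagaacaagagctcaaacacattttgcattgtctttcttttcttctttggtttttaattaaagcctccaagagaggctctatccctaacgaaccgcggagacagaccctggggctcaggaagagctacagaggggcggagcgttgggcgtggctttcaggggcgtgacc
The Bnip3 match is the palindrome CACGTG, the E-box form, which holds ACGTG on both strands, and it begins 108 bases before the start. In Gabarapl2 the match begins 75 bases before the start. The Optn window holds no match to ACGTG. The other form of the hypoxia response core, GCGTG, was not counted, and the Optn and Bnip3 windows shown here both hold it. The RefSeq start of Optn lies 66 bases from the first exon base in the deposited table. That distance was 318 bases for Fundc1 and 436 for the second start of Tax1bp1, whose windows lie inside the genes' spans in the table, and 0 to 77 bases for the other starts. The 9 members with a RefSeq window had 10 windows. Of these, 3 held ACGTG on either strand (Bnip3, Gabarapl2 and a second start of Tax1bp1), where 16.6% of all 32817 windows did. CACGTG was in 1 of the 10 windows (Bnip3) and in 6.02% of all windows. The antioxidant response core TGACNNNGC, the motif family of the factor NRF2, was in 1 of the 10 windows, at the second Tax1bp1 start, and in 10.2% of all windows.

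Among the receptors of the outer mitochondrial membrane, Bnip3 was the lowest and the most variable. Bnip3 (chromosome 7, 138890836 to 138909519, mm10) was at 3.68, 4.21 and 4.14 RPKM in naive replicates 1 to 3 and at 2.95, 4.01 and 4.40 in memory replicates 1 to 3. The lowest and the highest of the 6 values were both memory libraries, and the groups overlapped. The means were 4.01 ± 0.29 and 3.79 ± 0.75 RPKM (SD, n = 3 each), with a log2 change of -0.08 (SE 0.13, 95% interval -0.38 to 0.23, limma adjusted p = 0.82). With 142 to 216 reads per library, Bnip3 had the least depth of the 10, and taken back to RPKM from the naive level its interval holds a fall of up to 1.41-fold.

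Bnip3l encodes NIX, the paralogue of BNIP3 that is known for clearing mitochondria from maturing red cells. Bnip3l (chromosome 14, 66985239 to 67008877) was at 24.2, 24.1 and 25.2 RPKM in the naive group and 25.6, 24.9 and 23.5 in the memory group. The naive values lay inside the range of the memory values, and the log2 change was 0.01 (SE 0.05, interval -0.11 to 0.12, limma adjusted p = 0.96). Erythroid markers summed to between 79.5 and 102 RPKM in naive libraries and to between 64.9 and 71.6 in memory ones. All 5 had a negative change, and in 4 of them every memory library lay below every naive one, where 9.24% of all genes tested did so. Of the 5, 1 passed the test, the globin gene Hba-a2, and that call was lost in 7 of 14 alternatives (limma adjusted p 0.0255, up to 0.105). The part of red cell RNA in the Bnip3l level was not tested.

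Fundc1, a receptor whose binding to LC3 depends on its phosphorylation state, which changes under hypoxia, was higher than both BNIP3 paralogues. Fundc1 (chromosome X, 17556564 to 17572325) was at 44.1, 39.8 and 40.9 RPKM in the naive group and 40.9, 42.5 and 39.9 in the memory group. The groups overlapped, with naive replicate 1 above the other 5 libraries. On the log2 scale the change was -0.02 (SE 0.05, interval -0.14 to 0.10, limma adjusted p = 0.904).

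The 2 paralogues kept their order in every library. Bnip3l was 6.58, 5.72 and 6.09 times as high as Bnip3 in naive replicates 1 to 3, and 8.67, 6.20 and 5.33 times in memory replicates 1 to 3. The widest and the narrowest ratio both came from memory libraries. On the log2(RPKM + 1) scale, the ratio of Bnip3 to Bnip3l was -2.35 ± 0.08 in the naive group and -2.43 ± 0.29 in the memory group (SD, n = 3 each), a difference of -0.084 (exact permutation test, two-sided, p = 0.8). The smallest p that 3 libraries against 3 allow is 0.1. Without memory replicate 1 the difference was 0.075.

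**Figure D1:**
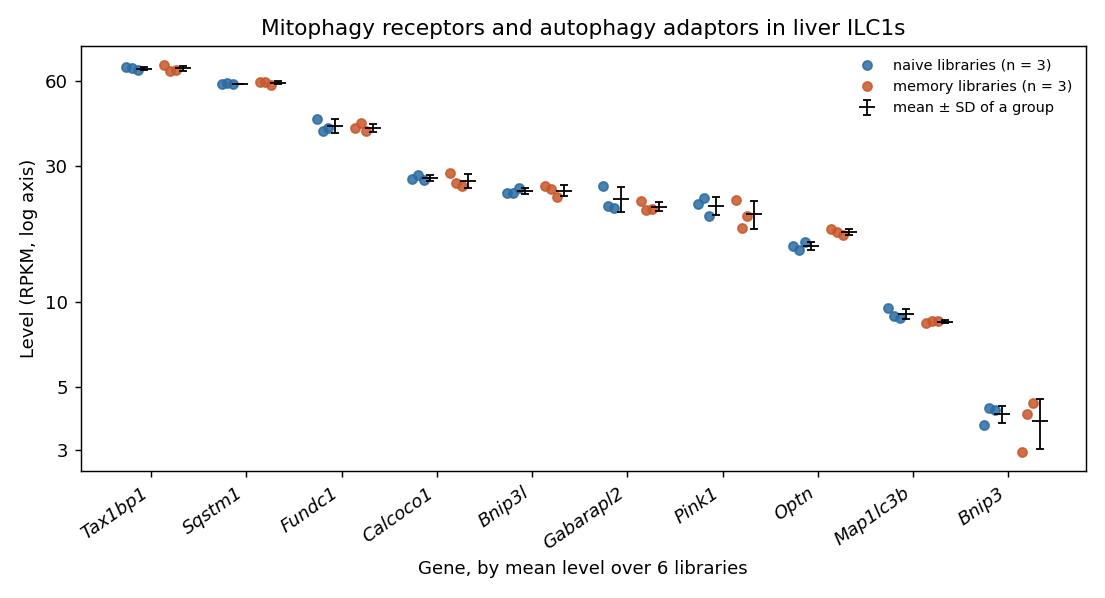
Level of each gene in RPKM on a log axis, by library (points, naive in blue and memory in orange), with the mean and SD of each group of 3. Tax1bp1 and Sqstm1 sit highest and Bnip3 lowest in both groups, and the groups are apart only for Optn and Map1lc3b.

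Pink1, the kinase that starts ubiquitin-dependent mitophagy, was the second most variable of the 10 between libraries. Pink1 (chromosome 4, 138313409 to 138326307) was at 22.1, 23.3 and 20.0 RPKM in the naive group and 22.8, 18.1 and 20.1 in the memory group. Memory replicate 2 was the lowest, and the other 5 libraries of both groups were mixed. Its log2 change was -0.10 (SE 0.09, interval -0.32 to 0.12, limma adjusted p = 0.652). Its partner Parkin, the ubiquitin ligase that PINK1 activates, is listed under the older symbol Park2 and had 0 to 11 reads per library (up to 0.054 RPKM), below the 0.5 RPKM needed for testing. Park2 was singled out after its values were seen. Tbk1, the kinase that phosphorylates optineurin and p62, was at 35.6 and 36.2 RPKM on average (log2 change 0.03, limma adjusted p = 0.85).

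Of the ubiquitin-binding adaptors, Tax1bp1 and Sqstm1 were the 2 most abundant of the 10 genes and varied least. Tax1bp1, which binds ubiquitinated cargo and also restrains NF-kB signalling (chromosome 6, 52713729 to 52766780), was at 66.9, 66.3 and 65.5 RPKM in the naive group and 68.1, 65.2 and 65.8 in the memory group. Its naive values lay inside the range of the memory values. The log2 change was 0.00 (SE 0.03, interval -0.08 to 0.08, limma adjusted p = 0.989), from 12499 to 15497 reads per library.

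Sqstm1 encodes p62, the adaptor that gathers ubiquitinated cargo and sequesters KEAP1. Sqstm1 (chromosome 11, 50199366 to 50210827) was at 58.5, 58.7 and 58.4 RPKM in the naive group and 59.7, 59.6 and 58.1 in the memory group. The 6 values overlapped across the groups, and the log2 change was 0.01 (SE 0.03, interval -0.06 to 0.09, limma adjusted p = 0.871).

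Optn, which encodes optineurin, an adaptor for damaged mitochondria and intracellular bacteria, was the one member whose 95% interval left out zero. Optn (chromosome 2, 5020642 to 5064051) was at 15.7, 15.2 and 16.2 RPKM in the naive group and 18.0, 17.6 and 17.2 in the memory group. All 3 memory libraries lay above all 3 naive libraries. The means were 15.7 ± 0.49 and 17.6 ± 0.39 RPKM (SD, n = 3 each), a mean 12.1% higher in memory. The log2 change of 0.16 (SE 0.05, interval 0.05 to 0.27) did not pass after adjustment (limma unadjusted p = 0.0124, adjusted p = 0.14). Of all genes tested, 67.1% had a smaller absolute change. Over 14 alternatives the Optn change stayed positive (0.13 to 0.18) with adjusted p from 0.134 to 0.318. Macrophage and monocyte markers moved with it. Of 14 such genes, 11 rose and none fell, none was at 0 in all 6 libraries, and their summed level was 58.7 to 66.5 RPKM in the naive group and 535 to 560 in the memory group. Most of that sum was Lyz2, the myeloid lysozyme gene (37.8 and 448 RPKM), and without it the sums were 23.7 to 24.96 and 92.8 to 99.1. Among genes of Kupffer cells, the macrophages resident in liver, some differed less than others. Marco (1.18 and 7.01 RPKM) and Adgre1 (0.62 and 2.87) were called higher (limma adjusted p = 0.000936 and 0.00148). Clec4f was at 2.88 and 4.68 RPKM and was called (limma adjusted p = 0.0134, lost without naive replicate 1, without any 1 memory library and with the replicate block, up to 0.0774), and Cd5l (8.41 and 10.1), Vsig4 (2.01 and 2.81) and Timd4 (0.56 and 0.69) were not. The part of those cells in the Optn level was not tested. In bulk RNA, more cells of a type and more RNA per cell cannot be told apart.

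Calcoco1 encodes an adaptor known for selective autophagy of the endoplasmic reticulum and Golgi. Calcoco1 (chromosome 15, 102706779 to 102722178) was at 27.1, 28.0 and 26.9 RPKM in the naive group and 28.4, 26.2 and 25.6 in the memory group. The highest and the lowest values were both memory libraries. Between the groups the log2 change was -0.03 (SE 0.05, interval -0.15 to 0.09, limma adjusted p = 0.812).

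**Figure D2:**
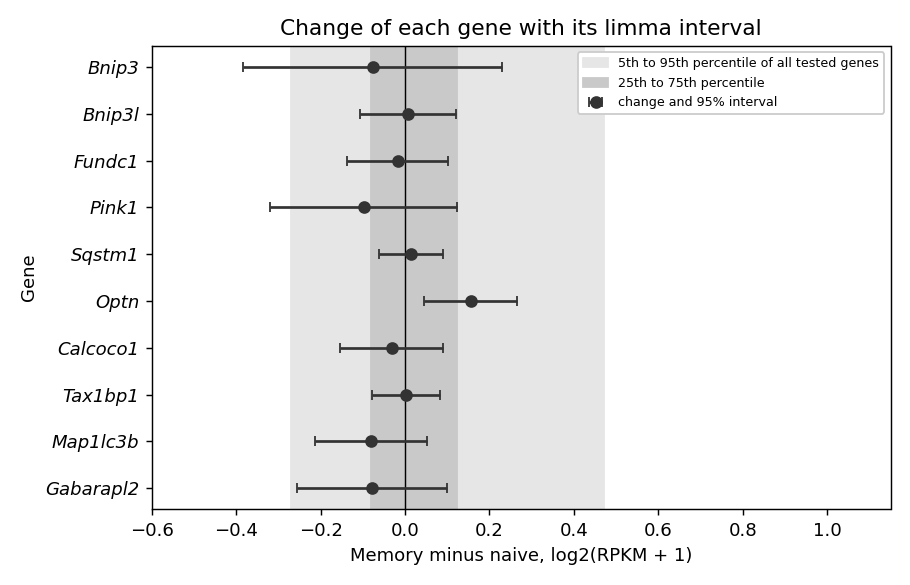
Change of each gene, on the log2(RPKM + 1) axis (memory minus naive), with its 95% interval from limma (3 libraries a group), over grey bands for the middle of all 13793 genes tested. Every interval but that of Optn crosses 0, and Bnip3 has the widest.

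Both ATG8 genes had lower means in the memory group, short of the threshold. Map1lc3b, which encodes LC3B, the usual marker protein of autophagosomes (chromosome 8, 121590361 to 121598760), was at 9.51, 8.87 and 8.79 RPKM in the naive group and 8.38, 8.57 and 8.57 in the memory group. All 3 memory libraries lay below all 3 naive libraries. The log2 change was -0.08 (SE 0.06, interval -0.21 to 0.05, limma adjusted p = 0.522). Groups that did not overlap were seen in 2 of the 10 genes (Optn and Map1lc3b), and in 24.1% of all genes tested (14.9% higher and 9.24% lower in memory).

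Gabarapl2, of the GABARAP branch of the family (chromosome 8, 111940703 to 111953612), was at 25.6, 21.8 and 21.4 RPKM in the naive group and 22.6, 21.1 and 21.2 in the memory group. Naive replicate 1 was the highest, and the other values overlapped. The log2 change was -0.08 (SE 0.07, interval -0.26 to 0.10, limma adjusted p = 0.654), and it was -7.2e-06 without naive replicate 1 (limma adjusted p = 1). Gabarapl2 was 2.69, 2.46 and 2.44 times as high as Map1lc3b in the naive group and 2.69, 2.46 and 2.47 times in the memory group. The log2 ratio of Map1lc3b to Gabarapl2 was -1.25 ± 0.08 in the naive group and -1.25 ± 0.07 in the memory group (exact permutation test, two-sided, p = 0.9, n = 3 each). Of the other ATG8 genes, Gabarap was at 24.1 and 23.6 RPKM and Gabarapl1 at 10.6 and 9.51 RPKM in the naive group and memory libraries, and none of these 3 genes with Map1lc3a was called.

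**Figure D3:**
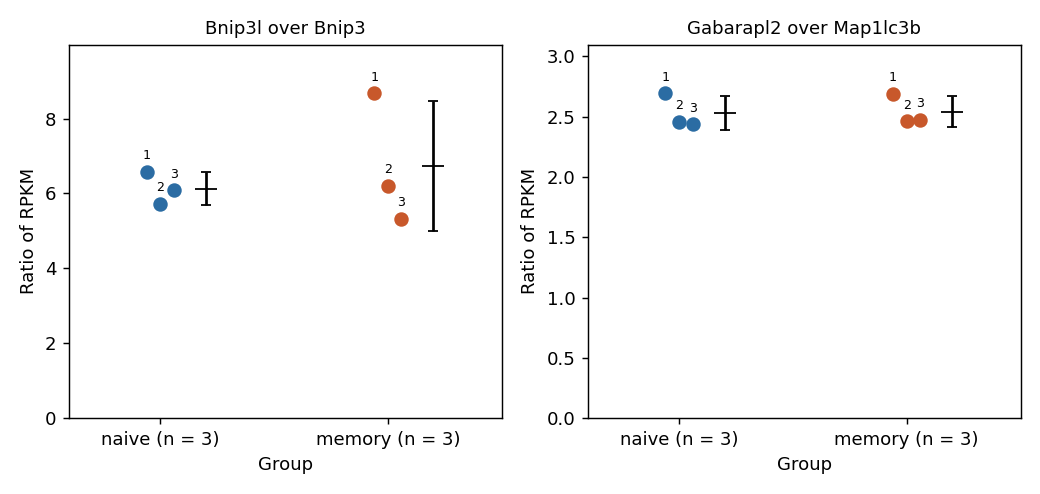
Ratio of RPKM between paired genes in each library, with replicate numbers above the points and the mean and SD of each group of 3 beside them. The Bnip3l to Bnip3 ratio spans 5.33 to 8.67, both ends in the memory group, and the Gabarapl2 to Map1lc3b ratio spans 2.44 to 2.69.

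By level per kilobase of exon over the 6 libraries, the order was Tax1bp1 (66.3 RPKM), Sqstm1 (58.8), Fundc1 (41.4), Calcoco1 (27.0), Bnip3l (24.6), Gabarapl2 (22.3), Pink1 (21.1), Optn (16.7), Map1lc3b (8.78) and Bnip3 (3.90). The highest mean was 17.0 times the lowest. Calcoco1 overlapped Bnip3l in range, Bnip3l overlapped Gabarapl2, and Gabarapl2 overlapped Pink1, so these neighbours are not ordered beyond the spread. Calcoco1 and Bnip3l both lay above Pink1 in every library. All other neighbours in that order had ranges that did not overlap. Exon length counts every annotated exon of a gene (9991 bases for Tax1bp1, 7517 for Map1lc3b and 2265 to 3963 for the rest), so a gene read mainly from a short form has its level understated.

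Some reads could belong to other loci. Of the distinct 50-base stretches in annotated transcripts (GENCODE M21), 20.8% of those of Bnip3l also occur in the pseudogene Bnip3l-ps. Transcripts of 4 other genes hold 16.6% of those of Bnip3, and transcripts of 4 others hold 12.2% of those of Gabarapl2. The share was 5.77% for Map1lc3b, 3.0% for Pink1 and 1.43% for Calcoco1, and 0% for Sqstm1, Optn, Tax1bp1 and Fundc1. On its own strand, Pink1 shares 110 exon bases with Gm27646 and 69 with Mir7019. On the opposite strand, 580 exon bases of Sqstm1 are shared with 3010026O09Rik and 504 of Bnip3 with Gm45507. Opposite-strand overlaps were smaller for Tax1bp1 (160 bases), Optn (73) and Map1lc3b (58). No source used here gives the strand setting of the counting, so the levels of these genes are uncertain to that extent.

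The rest of the autophagy pathway gave few differences, as did linked lists for hypoxia, NRF2 with p62 partners, and mitochondrial content. In 12 further lists, 122 genes were tested, 1 rose and none fell, against 3.20% higher and 0.972% lower over all genes tested. Of the 122 genes, 60 had a positive and 62 a negative change, with a median of -0.01, and 14 had an unadjusted p under 0.05. List medians lay between -0.07 and 0.07. No gene was called by limma in the lists for initiation (5 tested), the phosphoinositide kinase complex (8), ATG9 with ATG2 and WIPI proteins (6), ATG8 conjugation (11), autophagosome-lysosome fusion (14) and autophagy regulators (14).

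Within those lists, Becn1, the beclin 1 scaffold of the kinase complex, was at 20.0 and 20.2 RPKM (log2 change 0.01, limma adjusted p = 0.941). Atg3, the enzyme that joins ATG8 to lipid, was at 60.2 and 56.8 (log2 change -0.08, limma adjusted p = 0.367). Rab7, a GTPase of late endosomes, was at 110 and 112 (log2 change 0.03, limma adjusted p = 0.914). Foxo3, a transcription factor of autophagy genes, was at 19.4 RPKM in both groups.

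Other receptors and the outer membrane regulators were alike in having no call. Of 11 tested receptors, the endoplasmic reticulum receptors Sec62 (70.7 and 66.2 RPKM) and Ccpg1 (59.0 and 56.6) were the most abundant (limma adjusted p = 0.342 and 0.391). None of 19 tested regulators of PINK1, Parkin and mitochondrial fission or fusion was called. Genes of mitochondrial content and biogenesis, which bear on how much cargo a cell holds, had no call among 10 tested and a median of -0.07, with Cox4i1, a subunit of cytochrome oxidase, at 113 and 109 RPKM (limma adjusted p = 0.677).

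The hypoxia list, which holds HIF subunits, their regulators and known HIF-1 targets other than Bnip3, had no call among 13 tested genes, with a median of -0.03 and 3 genes at an unadjusted p under 0.05. Ldha, lactate dehydrogenase A, was at 54.6 and 50.2 RPKM (log2 change -0.12, limma adjusted p = 0.208) and Bhlhe40, a transcription repressor, at 35.5 and 38.0 (log2 change 0.10, limma adjusted p = 0.282).

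The 1 call was Nfe2l2, which encodes NRF2, the factor that is released when p62 sequesters KEAP1. Nfe2l2 was at 12.9, 13.9 and 13.6 RPKM in the naive group and 16.0, 16.0 and 17.3 in the memory group. All memory libraries were above all naive libraries, a log2 change of 0.27 (SE 0.05, limma adjusted p = 0.0422). The call held in 4 of 14 alternatives. It was lost without any one of the 6 libraries, with no filter, with the replicate block and under quantile or median ratio scaling (limma adjusted p up to 0.136). The other 7 tested genes of its list were not called. Macrophage and monocyte markers (11 of 14 called higher) moved with Nfe2l2 too, and their part in it was not tested.

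**Figure D4:**
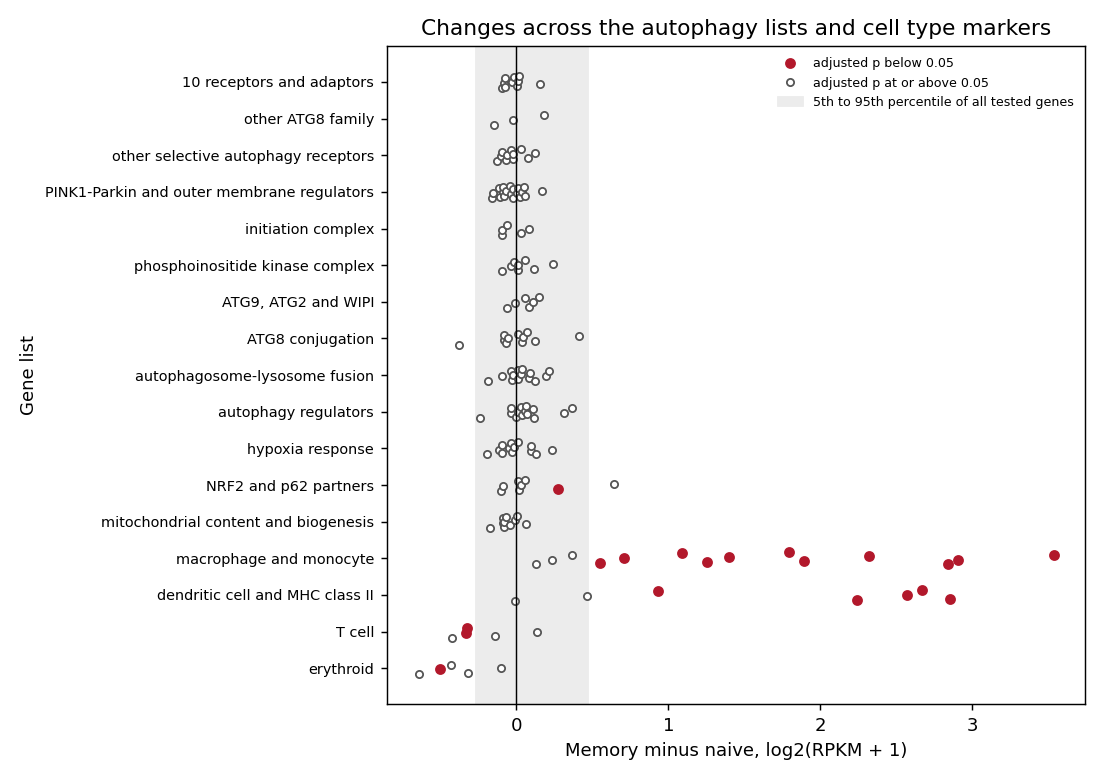
Change of every tested gene (points) on the log2(RPKM + 1) axis (memory minus naive) in the 10 receptors and adaptors, the 12 further lists and 4 lists of cell type markers, with calls in red. The 10 genes and the 12 further lists crowd around 0 with 1 call, Nfe2l2, in the list of NRF2 and p62 partners. In contrast, 11 of 14 macrophage and monocyte genes and 5 of 7 tested dendritic cell and MHC class II genes are called higher. All of the latter 5 but Siglech are MHC class II genes or Cd74.

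The libraries held ILC1 and NK markers at high level, with Ncr1 (NKp46) at 488 and 505 RPKM and Klrb1c (NK1.1) at 133 and 131. Of the 10 ILC1 and NK markers 1 was called, the chemokine receptor gene Cxcr6, which fell from 58.8 to 48.0 RPKM (limma adjusted p = 0.0144, up to 0.0648 over the alternatives; the call did not hold with the replicate block, nor with any 1 library left out other than naive replicate 3 and memory replicate 2), while Eomes, which marks conventional NK cells, was at 0.81 and 1.19 and Itga2 at 5.91 and 6.04. Of the other cell type lists, dendritic cell and MHC class II genes summed to 47.8 to 52.4 RPKM in the naive group and 329 to 334 in the memory group. Most of that was the MHC class II gene H2-Ab1 (20.2 and 134 RPKM) and the invariant chain gene Cd74 (19.6 and 122). Of the dendritic cell genes, Siglech was called higher (0.08 and 1.08 RPKM, called in 6 of 13 alternatives). Zbtb46 (0.39 and 0.92) and Xcr1 (1.42 and 1.42) were not called, and Flt3 (0 and 0.49) was too low to test. Hepatocyte genes summed to 24.3 to 26.1 and 36.1 to 38.6. Most of the hepatocyte sum was Trf (21.8 and 23.2 RPKM, not called), and without it the sums were 3.29 to 4.28 and 13.1 to 14.3. Of 6 hepatocyte genes 2 were called higher, Hp (0.69 and 5.79 RPKM, called in 14 of 14 alternatives) and Alb (1.40 and 3.86, called in 7 of 14). T cell genes summed to 214 to 249 and 199 to 218, most of it Trbc1 (192 and 174 RPKM). Trac (1.40 and 0.79 RPKM), Cd4 (1.60 and 1.84) and Cd8a (0.03 and 0.05) were low in both groups. Of the T cell genes, 2 of 5 tested were called lower, Cd3g (limma adjusted p = 0.0181, up to 0.076 over the alternatives) and Lat (0.00932, up to 0.0712). The Cd3g call was lost without any 1 library other than naive replicate 3, the Lat call without memory replicate 2, and both with the replicate block. B cell genes summed to 78.4 to 90.2 and 84.4 to 87.6, nearly all of it Ighm, with Cd79a at 0.19 and 0.11 and Cd79b at 0.86 and 0.80 RPKM. Endothelial genes summed to 14.6 to 16.8 and 19.1 to 19.4, most of it Pecam1. Of 3 neutrophil genes, Csf3r was called higher (0.17 to 1.55 RPKM), while S100a8 and S100a9 stayed at means of up to 0.31. No marker with a row in the table was at 0 reads in all 6 libraries. The part of these cells in the level of any of the 10 genes was not tested.

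Across the 6 libraries, the genes whose pattern was most like that of Optn, among 7300 genes of at least 5 RPKM, were Il17ra (Pearson r = 0.991), Fbxo11 (0.988) and B3gnt2 (0.987). These r are a description over 6 libraries that share their group difference, ranked from many genes. Il17ra, the receptor of interleukin 17, was at 10.8 ± 0.44 RPKM in the naive group and 13.3 ± 0.54 in the memory group (SD, n = 3 each), with a log2 change of 0.27 (limma adjusted p = 0.0473, 0.000668 to 0.167 over 14 alternatives).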

How the data were processed

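The deposited table holds RPKM values, made by the authors, for 6 libraries. Per the labels' protocols, TRIzol was used for extraction and a stranded mRNA kit for library preparation. The tools in the submitters' processing notes are edgeR 3.12.1, featureCounts, STAR 2.5.3a and Subread 1.5.1, with the build mm10 and no roles given. Per the file headers, each gene has exon positions and an exon length. Read numbers were recovered from the value of 1 read in each library. They were whole for 100% of values, to a tolerance of 0.01 read, and totalled 18697093 to 23795266 per library. Low counts (1 to 10) were even in 69.8% to 72.3% of cases, so mates may have been counted singly, and counting precision is lower than reads imply.

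Groups came from the labels, which do not say whether replicates were separate animals, so a p-value covers the spread of these libraries, which may be technical. The test was limma-trend (limma 3.58.1, R 4.3.3) on log2(RPKM + 1). Genes averaging 0.5 RPKM or more over all 6 libraries were tested, Benjamini-Hochberg adjusted, threshold 0.05, and was tested on simulated data. Ratios used an exact permutation test (scipy 1.17.1). The 14 alternatives were pseudocounts 0.1 and 0.5, no filter, a 2 RPKM filter, quantile normalization, median ratio scaling, voom on recovered reads, a replicate block, and each library left out. Members and lists were chosen with earlier results of these data known. Named genes were the members, called genes of each list (else the 2 highest), the 2 highest markers, and the 3 genes most like the member with the smallest adjusted p. Some other markers were also named, outside this rule. Some listed genes, among them Calcoco2 and Nqo1, were not analysed here.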

Additional observations from a re-analysis of the deposited data

How the results depend on the processing

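No member was called in any of the 14 alternatives (0 of 10 in each, adjusted p at least 0.134). The sign held in all 14 for Optn, Pink1, Calcoco1, Map1lc3b and Gabarapl2. One library held nearly the whole difference of Gabarapl2, whose change was -7.2e-06 without naive replicate 1 (limma adjusted p = 1), and that of Calcoco1 was -0.0016 without memory replicate 3. The sign turned in at least 1 alternative for the other 5 members. Bnip3 went from -0.08 to 0.06 without memory replicate 1, and Sqstm1 (-0.01) and Tax1bp1 (-0.03) turned under median ratio scaling. The count over all genes was 575, 1141 with voom on recovered reads, and 275 to 387 with 1 library left out. Calls in the further lists went from 1 to 0 with no filter, quantile normalization, median ratio scaling or any library left out, and to 4 with voom (Nfe2l2, Tfe3, Egln1 and Hmox1). With 1 library left out, the difference in the Bnip3 to Bnip3l ratio was -0.21 to 0.075 and in the Map1lc3b to Gabarapl2 ratio -0.048 to 0.037, so neither has a set direction. The cause of these shifts was not tested.

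Same-numbered libraries did not deviate together (r of deviations -0.084, -0.0395 and -0.00297). Naive replicate 1 and memory replicate 2, which differ in number, had r = 0.109. These r gave no sign of pairing by number, but so few libraries cannot exclude a pairing or a shared batch. With the replicate block, 271 genes were called, 0 of 10 members and 0 genes of the further lists. Depth limits Bnip3 most, with as few as 142 reads in a library.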
